A study of Mus musculus with 2 samples.

Results

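The lung endothelial cells described here were picked by their RNA from a sort that was aimed at another cell type. Group 2 innate lymphoid cells (ILC2s) were gated from fetal mouse lungs on gestation day 18 as CD45+Lin-ST2+ cells, with the cells of 4 litters stained before the sort with 1 hashtag antibody per litter, and were read in a 10x Genomics 5′ single-cell matrix. The mothers, 9 weeks old, were given either the synthetic glucocorticoid dexamethasone (DEX, 1.3 µg/ml) or PBS (phosphate-buffered saline) in the water they drank, starting on gestation day 12. The lungs of all fetuses of a litter were pooled before staining (8 and 9 fetuses in DEX-1 and DEX-2, and 5 and 8 in PBS-1 and PBS-2), so that the litter was the replicate, with 2 litters per group, and no value belongs to a single fetus. The comparison of DEX with PBS asks what a maternal glucocorticoid changes in the fetal lung.

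An endothelial cell was a singlet barcode with at least 2 unique molecular identifiers (UMIs) of Cldn5, at least 1 of Pecam1 or Cdh5, at most 3 of Sftpb, none of Higd1b or Cox4i2 and at most 3 of Hdc. These were 479 of 8598 singlets, and the matrix held 10648 barcodes in all. Cldn5 encodes claudin-5 of the endothelial tight junction, Pecam1 encodes CD31, and Cdh5 encodes VE-cadherin of the adherens junction. The limits on Sftpb, Higd1b with Cox4i2, and Hdc were set against epithelial cells, pericytes, and mast cells with basophils, whose RNA still stood in a part of the barcodes. Of 987 singlets with enough Cldn5, 956 also had Pecam1 or Cdh5, 677 remained after the Sftpb limit, 507 after the pericyte genes and 479 after the Hdc limit. DEX-1 held 54 of these cells, DEX-2 118, PBS-1 110 and PBS-2 197. Within them, 111 cells had at least 2 UMIs summed over Gja4, Gja5 and Sema3g and were called arterial (10 and 19 in the DEX litters, 29 and 53 in the PBS litters; values by litter always follow the order DEX-1, DEX-2, PBS-1, PBS-2). Another 288 had none of these UMIs and were called arterial-negative (36, 71, 73 and 108), and 80 had exactly 1.

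Endothelial cells line every blood vessel and take on an arterial, venous, lymphatic or capillary identity while the vessels form. Arterial identity is known to rest on VEGF and Notch signalling and on transcription factors such as Sox17 and Hey1, whereas Nr2f2 (COUP-TFII) specifies veins. The arterial rule used 3 genes of that program: Gja4 and Gja5 encode the gap junction proteins connexin 37 and connexin 40, which couple arterial endothelial cells, and Sema3g encodes a secreted semaphorin. Around birth the lung capillaries hold general capillary cells, which act as progenitors, and aerocytes, which are specialised for gas exchange.

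Promoters of 3 genes that were higher in arterial cells and of 1 that was lower are shown, chosen after their values were seen, because RBPJ of the Notch pathway and SOX factors, both known in this program, bind short DNA cores. Each line gives the 250 bases before the transcription start from RefSeq (GRCm38.p6), 5′ to 3′ on the strand of the gene, with capitals for the RBPJ core TGGGAA and the SOX core ACAAT on either strand. The window of Cxcl12 is chr6:117168285-117168534 on the plus strand, that of Edn1 chr13:42301226-42301475 on the plus strand, that of Fbln5 chr12:101819120-101819369 on the minus strand and that of Ackr3 chr1:90203730-90203979 on the plus strand.
Cxcl12: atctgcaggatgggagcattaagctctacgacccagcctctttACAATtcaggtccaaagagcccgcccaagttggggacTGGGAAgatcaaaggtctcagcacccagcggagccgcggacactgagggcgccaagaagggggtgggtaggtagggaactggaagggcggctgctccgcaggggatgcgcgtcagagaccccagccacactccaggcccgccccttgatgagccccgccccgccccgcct
Edn1: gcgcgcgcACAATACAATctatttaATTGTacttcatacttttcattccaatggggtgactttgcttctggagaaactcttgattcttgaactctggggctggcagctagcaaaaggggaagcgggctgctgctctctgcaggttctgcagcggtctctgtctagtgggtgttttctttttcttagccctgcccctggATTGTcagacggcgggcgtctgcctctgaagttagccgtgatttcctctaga
Fbln5: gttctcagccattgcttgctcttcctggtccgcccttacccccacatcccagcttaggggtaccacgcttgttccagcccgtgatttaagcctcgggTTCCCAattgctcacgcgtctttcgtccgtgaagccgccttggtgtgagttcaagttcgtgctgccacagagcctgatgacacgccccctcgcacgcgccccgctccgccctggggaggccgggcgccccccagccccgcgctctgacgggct
Ackr3: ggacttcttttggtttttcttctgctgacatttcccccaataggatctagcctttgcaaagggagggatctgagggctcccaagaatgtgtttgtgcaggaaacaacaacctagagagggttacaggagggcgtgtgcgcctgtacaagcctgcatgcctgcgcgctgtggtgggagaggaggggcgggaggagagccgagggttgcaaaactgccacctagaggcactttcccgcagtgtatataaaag
Cxcl12 held 1 match to each core, Edn1 held 4 to the SOX core, Fbln5 held 1 to the RBPJ core, and Ackr3 held none of either. For Fbln5 the first of 2 promoters in the table is shown. Over the same window, TGGGAA was found in 26.0% of 77 promoters of genes called higher in arterial cells, in 32.3% of 31 promoters of genes called lower, in 18.8% of the 6279 promoters of genes that entered the test and in 21.6% of all 32851 promoters. ACAAT was found in 24.7%, 9.68%, 17.9% and 27.7% of the same sets. The promoter table held 49 of the 71 higher genes outside the rule and 25 of the 37 lower ones. A match is only these letters in this window, and both the higher and the lower genes carried them.

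The endothelial label held over genes that the rule had not used. Egfl7, which encodes a secreted endothelial matrix protein, was at 1641, 1494, 1863 and 1502 CPM (counts per 1e6 UMIs of the summed cells) in the 4 litters. In ILC2s, taken as 1425 singlets with at least 2 Gata3 and 1 Il7r UMIs and without Cldn5, Egfl7 was at 15.8 CPM, and in 219 B cells it was at 11.8 CPM. Ramp2, the subunit that turns the receptor of Calcrl into an adrenomedullin receptor, was at 3104 CPM in endothelial cells, 9.33 CPM in ILC2s and 17.7 CPM in B cells. Kdr, the main VEGF receptor, was at 399.6, 393, 463 and 377 CPM in the 4 litters and at 1.82 CPM in ILC2s. Emcn, Tek and Flt1 were at 899, 111 and 178 CPM in the endothelial cells and at no more than 2.77 CPM in the ILC2s. For all 6 genes, no level overlapped between the endothelial cells of any litter and those of the ILC2s.

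The CD45 and ST2 of the sort were weak in these cells at the level of RNA. Ptprc, which encodes CD45, was at 13.3 CPM against 175 CPM in ILC2s, and 6.05% of the endothelial cells had a UMI against 76.2% of the ILC2s. Il1rl1, which encodes ST2, was at 10.8 CPM against 195 CPM, and Gata3 at 26.2 CPM against 481 CPM. The litter tag was also weak, with a median of 84 UMIs of the own tag against 1137 in ILC2s. Il33, which encodes the ligand of ST2, had 4 UMIs in all 479 cells, and Prox1, the lymphatic master factor, had 22 UMIs. The endothelial cells held 4807426 gene UMIs, with a median of 7023 UMIs and 2853 genes per cell and with litter medians between 6237.5 and 8118 UMIs.

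RNA of other cells stood in a part of the barcodes. Summed UMIs of Ager, Hopx, Aqp5, Clic3 and Cldn18, genes of alveolar type 1 (AT1) epithelial cells, were 0 in 201 cells, 1 to 10 in 206, 11 to 100 in 16 and 101 to 717 in 56. The last class had a median of 19309.5 UMIs per barcode, against 5781 where there were none. Barcodes over 10 such UMIs numbered 72 and held 27.8% of all endothelial UMIs, and 7, 19, 6 and 40 of them came from the 4 litters. In them Ager was at 4171 CPM against 28.3 CPM in the rest, Egfl7 at 1013 against 1816 CPM and Gja4 at 46.3 against 292 CPM. Hemoglobin passed 10 UMIs in 7 barcodes, all arterial-negative, and the highest 2 of them (762 and 614 UMIs) held 76.0% of the hemoglobin UMIs of all endothelial cells. The macrophage gene Lyz2 passed 3 UMIs in 7 barcodes, with 419 UMIs in the highest. The counts of calls, and the lists that differed, are therefore also given for the 369 cells with few such UMIs (40, 85, 97 and 147 per litter), a set chosen after these barcodes had been seen, in which the summed level of the epithelial list was 523 instead of 3904 CPM and that of the pan-endothelial list 18892 instead of 15399 CPM.

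**Figure D1:**
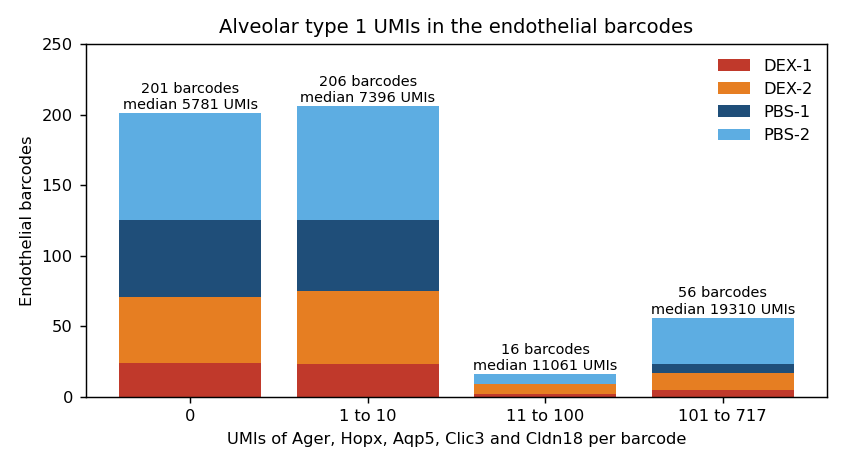
Number of endothelial barcodes (vertical axis) by their summed UMIs of the 5 alveolar type 1 genes (horizontal axis), stacked by litter, with the number and the median total UMIs above each bar. Most barcodes had 10 or fewer, and a separate class of 56 barcodes had 101 to 717 with the highest total UMIs.

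By the rule, Gja4, Gja5 and Sema3g set the arterial cells apart, and their values are only a description. Gja4 was found in 109 of the 111 arterial cells, Gja5 in 36 and Sema3g in 48, and 59 cells held at least 2 of the 3 genes. Gja4 was at 735, 543, 663 and 794 CPM in the arterial cells of the 4 litters, Gja5 at 86.1, 104, 131 and 140 CPM, and Sema3g at 86.1, 31.6, 100.2 and 63.4 CPM. All 3 were at 0 in the arterial-negative cells by construction. The 25 cells just inside the limit, with a sum of 2, had Hey1 at 217 and Sox17 at 406 CPM, and the 80 cells just outside, with a sum of 1, had them at 145 and 323 CPM. At the other edge, the 36 cells with 2 Cldn5 UMIs had Egfl7 at 1124 CPM and Ramp2 at 1892 CPM, and the 47 barcodes with 1 Cldn5 UMI that met all other conditions had 604 and 979 CPM. Arterial cells were deeper, with a median of 8936 UMIs against 6413.

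Arterial cells differed from arterial-negative cells in 111 of 6084 genes tested (1.82%) with litter as a block (edgeR quasi-likelihood test on UMIs summed per litter and class, Benjamini-Hochberg adjusted p under 0.05). Of these, 74 were higher (1.22%) and 37 lower (0.608%), and 3 of the higher ones were the genes of the rule. An unadjusted p under 0.05 was found in 624 genes (10.3%), and 9.47% of all genes tested were higher and 9.07% lower in the arterial cells of all 4 litters. The higher genes were led by the chemokine gene Cxcl12 and held the transcription factor genes Mecom, Sox17, Hey1 and Sox6, the vasoconstrictor gene Edn1 and elastic fibre genes. Among the lower genes were the receptor genes Ackr3, Nrp2 and Aplnr, the venous factor Nr2f2, and Fabp4. In the cells with few UMIs of other cells, 264 of 4761 genes passed (5.55%), 142 of them higher (2.98%) and 122 lower (2.56%), and 97 of the 111 genes passed again.

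Cxcl12, which encodes the chemokine that attracts Cxcr4-bearing cells, showed the widest separation. Its level in arterial cells was 3074, 1728, 2481 and 2298 CPM in the 4 litters (CPM here and below with TMM-scaled library sizes). In arterial-negative cells it was 0, 15.2, 0 and 5.77 CPM. The arterial and arterial-negative sums lay far apart, with a log2 fold change of 8.65 ± 0.42 (SE, n = 4 litters, adjusted p = 1.6e-06). The UMIs were uneven: 60 of 111 arterial cells had Cxcl12, and 4 cells held 1618 of its 3169 UMIs, whereas 7 of 288 arterial-negative cells had 13 UMIs in all. Ackr3, which encodes the scavenger receptor of the same chemokine, ran the other way. It was at 69.4, 72.4, 81.2 and 84.9 CPM in arterial and at 355, 219, 270 and 306.8 CPM in arterial-negative cells, without overlap (log2 fold change -1.85 ± 0.17, adjusted p = 0.00017). The gene of Ackr3 lies at chr1:90203980-90216751 and that of Cxcl12 at chr6:117168535-117181367 (GRCm38, GENCODE M21). The long non-coding RNA gene Gm9946, at chr6:117559697-117572329, had 121 UMIs in 14 arterial cells and none in the arterial-negative cells, and was at least 70.8-fold higher (83.5 CPM over all arterial cells against 1.18 CPM, the level that 3 UMIs over the class would give).

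Of the transcription factors of the arterial list, Mecom rose most. It was at 246, 210, 186 and 192 CPM in arterial and at 27.8, 26.0, 27.8 and 60.6 CPM in arterial-negative cells (log2 fold change 2.46 ± 0.25, adjusted p = 0.00034). Sox17, a factor of arterial specification, was at 625, 493, 656 and 773 CPM against 247, 284, 407 and 271 CPM (1.08 ± 0.17, adjusted p = 0.0054). Both groups of sums lay apart in these genes, and Sox17 was well above 0 in arterial-negative cells too. Hey1, a transcriptional repressor induced by Notch, was at 158, 207, 339 and 347 CPM against 89.6, 88.9, 115 and 71.2 CPM (1.57 ± 0.22, adjusted p = 0.00285). Its arterial level was lower in both DEX litters than in both PBS litters. Sox6, a factor without an activation domain of its own, was at 56.8, 27.6, 52.2 and 38.1 CPM against 3.09, 2.17, 0 and 3.85 CPM (3.93 ± 0.50, adjusted p = 0.0014). Prdm16 was also higher (2.35 ± 0.37, adjusted p = 0.0064), but without PBS-2 its adjusted p was 0.13.

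Further arterial genes outside the rule were counted from a list of 30. That list was chosen with earlier results of these data known, so its counts are no independent test. Over all genes tested, 1.22% rose and 0.608% fell, with a median log2 fold change of -0.01. Of the 19 list genes that were tested, 11 rose and 0 fell, with a median of 1.56. Among cells with few UMIs of other cells, 12 rose and Vegfc, a lymphangiogenic growth factor gene, fell (-1.33, adjusted p = 0.038). Over all genes tested in those cells, 2.98% rose and 2.56% fell. Efnb2, the ephrin ligand that marks arteries, was at 170, 238, 397 and 305 CPM in arterial and at 49.4, 102, 81.4 and 82.7 CPM in arterial-negative cells (1.81 ± 0.19, adjusted p = 0.00037). Edn1, which encodes the vasoconstrictor endothelin-1, was at 170.5, 166, 168 and 305 CPM against 21.6, 34.7, 53.7 and 40.4 CPM (2.42 ± 0.24, adjusted p = 0.00025). Arterial and arterial-negative sums did not overlap in either gene. Tm4sf1, which encodes a tetraspan membrane protein, was at 1660, 1142, 1532 and 1606 CPM against 176, 282, 131 and 204 CPM (2.93 ± 0.22, adjusted p = 3.5e-05), and it was found in 97 of 111 arterial and 139 of 288 arterial-negative cells. Stmn2, a microtubule regulator, and Depp1, a target of FOXO factors, rose by 2.13 ± 0.23 and 1.92 ± 0.21 on the log2 scale. Dll4, the Notch ligand of arteries, did not pass (0.77 ± 0.29, adjusted p = 0.32), and neither did Unc5b (0.97 ± 0.29, adjusted p = 0.16) or Notch1 (0.47 ± 0.25, adjusted p = 0.59). Unc5b, a netrin receptor gene, passed in the cells with few UMIs of other cells (1.31, adjusted p = 0.013).

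**Figure D2:**
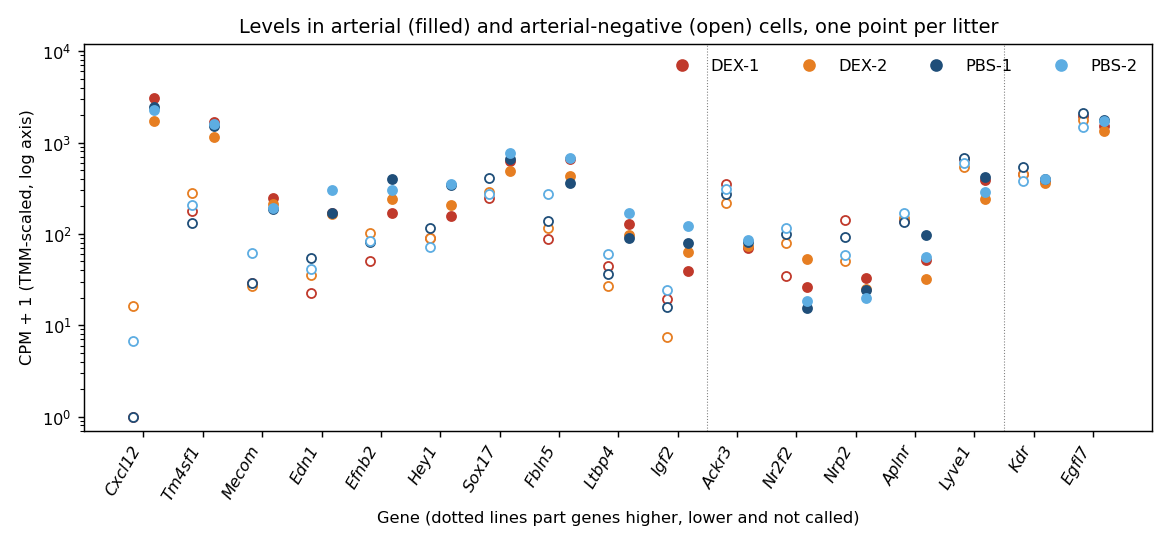
TMM-scaled CPM plus 1 on a log axis for 17 genes, 1 point per litter, open for arterial-negative and filled for arterial cells. Cxcl12 was at 1728 to 3074 CPM in arterial cells and at 0 to 15.2 CPM in arterial-negative cells, Ackr3 to Lyve1 were lower in arterial cells, and Kdr and Egfl7 were not called.

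For the lists of this paragraph, the shares over all genes tested were 1.22% higher and 0.608% lower. In the cells with few UMIs of other cells they were 2.98% and 2.56%. Over the Notch pathway, 1 of 11 tested genes rose (Hey1) and 0 fell, with a median of 0.47. Jag2, a Notch ligand, had a log2 fold change of 0.76 ± 0.31 (adjusted p = 0.41), Notch4 0.65 ± 0.30 (adjusted p = 0.49) and the target Hes1 0.49 ± 0.20 (adjusted p = 0.39). Among genes of BMP and TGF-β signalling, 1 of 15 rose: Id3, a target of BMP signals, was at 985, 949, 1358 and 1133 CPM in arterial and at 460, 449, 685 and 766 CPM in arterial-negative cells (0.92 ± 0.14, adjusted p = 0.0045). With few UMIs of other cells, 4 of 13 genes of that list rose and 1 fell. Of 13 vasoactive and shear genes, Edn1 alone passed, and the flow-induced factor Klf2 had 0.53 ± 0.13 (adjusted p = 0.076). In the cells with few UMIs of other cells, 2 of 11 rose, Edn1 and Klf2 (0.62, adjusted p = 0.012), and 2 fell, Ednrb and the thrombomodulin gene Thbd (-0.96, adjusted p = 0.0033). Among 14 tested genes of VEGF, angiopoietin, apelin and chemokine signalling, Cxcl12 rose and Ackr3, Nrp2 and Aplnr fell, and Vegfc and Kdr fell as well in the cells with few UMIs of other cells. The growth factor genes Vegfc (-1.34 ± 0.33, adjusted p = 0.079) and Vegfa (0.36 ± 0.27, adjusted p = 0.76) and the angiopoietin receptor Tek (0.47 ± 0.22, adjusted p = 0.52) did not pass. Apln, the ligand of Aplnr, was at 75.8, 24.1, 26.1 and 45.1 CPM in arterial and at 71.1, 73.7, 172 and 59.6 CPM in arterial-negative cells, and only DEX-1 had the higher level in arterial cells (-1.14 ± 0.37, adjusted p = 0.23).

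The elastic fibre genes split. Fbln5, which encodes fibulin-5 of the elastic fibre, was at 663, 431, 357 and 679 CPM in arterial and at 86.5, 115, 139 and 274 CPM in arterial-negative cells (1.79 ± 0.23, adjusted p = 0.0015). Ltbp4, which encodes a TGF-β binding protein of the same fibre, was at 126, 96.6, 89.9 and 170 CPM against 43.2, 26.0, 35.2 and 58.7 CPM (1.56 ± 0.19, adjusted p = 0.0012), and Fbn1 (fibrillin-1) rose by 2.49 ± 0.26. Eln, which encodes elastin itself, fell by 1.09 ± 0.18 (adjusted p = 0.0093), at 107, 207, 75.4 and 263 CPM against 361, 330, 199.8 and 482 CPM. That call did not last: it was lost without PBS-1 (-1.02, adjusted p = 0.059) and in the cells with few UMIs of other cells (-0.37, adjusted p = 0.48), and after thinning each cell to 2000 UMIs the value was 0.015. The proteoglycan gene Bgn fell by 1.46 ± 0.17. The fibronectin gene Fn1 fell by 2.11 ± 0.27 and lay between 25.9 and 336 CPM in the arterial-negative sums and between 0 and 82.8 CPM in the arterial ones. The sums thus overlapped although Fn1 was lower in each litter. Its call was lost without the litter block and in the barcodes with 10 or fewer AT1 UMIs. Over the matrix list, 3 of 22 tested genes rose and 3 fell, with 3 of 18 higher and 4 lower in the cells with few UMIs of other cells. The shares over all genes tested were 1.22% higher and 0.608% lower, and 2.98% and 2.56% in those cells.

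All genes tested had shares of 0.608% lower and 1.22% higher. Of 6 tested venous genes, 2 fell and 0 rose, with 2 fitted higher and a median of -0.74. The cells with few UMIs of other cells gave the same counts for these genes, beside 2.56% lower and 2.98% higher over all genes tested there. Nr2f2 was at 25.3, 51.7, 14.5 and 17.3 CPM in arterial and at 34.0, 78.1, 98.1 and 116 CPM in arterial-negative cells (-1.80 ± 0.38, adjusted p = 0.038). The gap was narrow in the DEX litters and wider in the PBS litters, the sums overlapped, and the call was lost without PBS-1 (adjusted p = 0.22) or PBS-2 (adjusted p = 0.33). Nrp2, a co-receptor of semaphorins and VEGF-C, was at 31.6, 24.1, 23.2 and 19.1 CPM against 142, 49.9, 90.7 and 57.7 CPM (-1.69 ± 0.27, adjusted p = 0.0060). By cells, 50.5% of arterial and 29.9% of arterial-negative cells had at least 2 UMIs summed over Nr2f2, Vwf, Slc6a2 and Ephb4. After thinning to 2000 UMIs per cell, 8.26% and 10.9% did, against 2.28% of B cells before and 0% after thinning. Vwf, which encodes the von Willebrand factor stored by large-vessel endothelium, had 0.40 ± 0.28 (adjusted p = 0.73).

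Of the 8 tested aerocyte genes, 0 passed, and all were fitted lower, with a median of -0.76. For all genes tested, 1.22% passed as higher and 0.608% as lower, and 3098 of 6084 were fitted lower. Car4, which encodes the carbonic anhydrase that marks aerocytes, was at 196, 328, 197 and 284 CPM in arterial and at 605, 419, 794 and 346 CPM in arterial-negative cells, and its adjusted p was 0.099 (-1.02 ± 0.27). Ednrb (endothelin receptor B) had -0.82 ± 0.19 (adjusted p = 0.053) and Kitl (the ligand of Kit) had -0.72 ± 0.17 (adjusted p = 0.0635). AT1 cells also express some of these genes. In the cells with few UMIs of other cells, 5 of 7 aerocyte genes fell, with a median of -1.11. Over all genes tested there, 2.56% fell and 2.98% rose. The aerocyte genes that fell included Car4 (-2.07, adjusted p = 0.0037), Ednrb (-1.11, adjusted p = 0.021) and Kitl (-1.01, adjusted p = 0.017). By cells, 57.3% of the 288 arterial-negative and 38.7% of the 111 arterial cells had at least 2 UMIs summed over Car4, Ednrb, Apln and Fibin. In B cells, which should lack them, the share was 2.74%. After thinning to 2000 UMIs per cell these shares were 32.4%, 11% and 0.980%. For general capillary cells, at least 2 UMIs summed over Gpihbp1, Aplnr, Plvap and Cd93 were found in 69.8% of the thinned arterial-negative and 67.9% of the thinned arterial cells. Of 8 general capillary genes tested, with 4 fitted higher and 4 lower, Ptprb rose (1.17 ± 0.20, adjusted p = 0.011) and the apelin receptor Aplnr fell (-1.37 ± 0.26, adjusted p = 0.018). Neither held throughout, since Aplnr had an adjusted p of 0.14 without PBS-2, and Ptprb had 0.085 without PBS-1 and 0.056 without PBS-2.

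**Figure D3:**
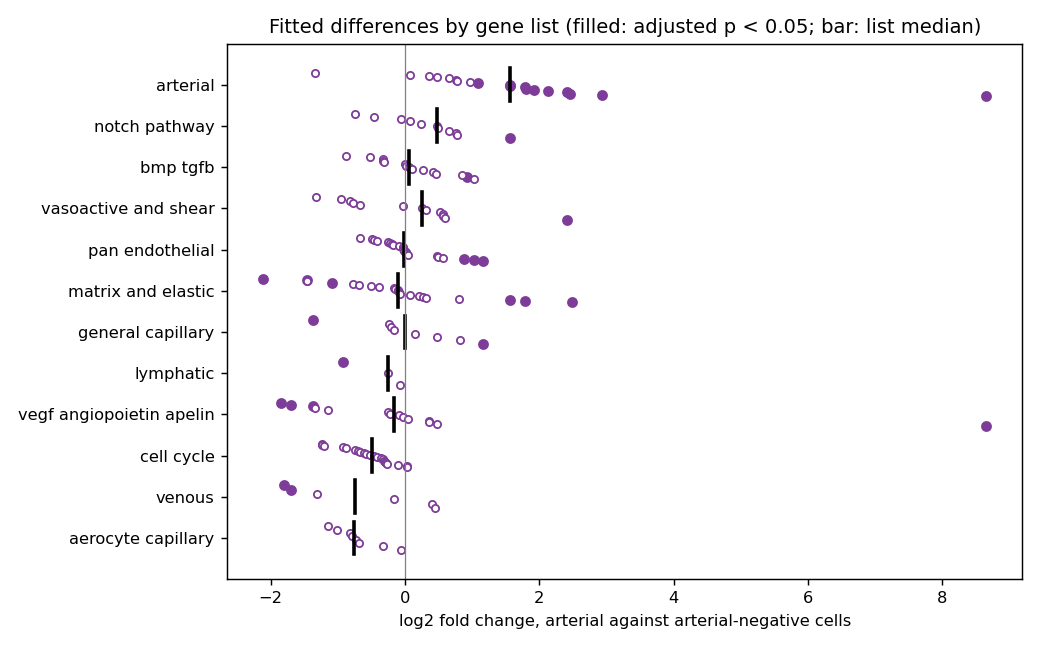
Fitted log2 fold changes of arterial against arterial-negative cells (horizontal axis) for the tested genes of 12 lists (rows), without the genes of the rule, filled where the adjusted p was under 0.05, with a bar at the list median. The arterial list had a median of 1.56, and the aerocyte and venous lists had -0.76 and -0.74.

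The shares over all genes tested were 1.22% higher and 0.608% lower, and 2.98% and 2.56% in the cells with few UMIs of other cells. Of 23 genes shared by all endothelium and outside the rule, 3 rose (Ptprb, Mmrn2 and Clec14a) and 0 fell, with a median of -0.02. Mmrn2 lost the call without DEX-1 (adjusted p = 0.097), PBS-1 (0.15) or PBS-2 (0.22), and Clec14a without PBS-2 (0.051). Among cells with few UMIs of other cells, 4 rose and 4 fell, with a median of -0.14: Sox18 rose too (0.51, adjusted p = 0.033), and the surface protein genes Emcn (-0.69, adjusted p = 0.0029), Cd34 (-0.69, adjusted p = 0.0047), Robo4 (-0.91, adjusted p = 0.042) and Kdr (-0.61, adjusted p = 0.048) fell. Ramp2 had a log2 fold change of -0.04 ± 0.13 and Egfl7 of -0.18 ± 0.14. Kdr was at 391, 355, 400.4 and 399 CPM in arterial and at 454, 451, 546 and 376 CPM in arterial-negative cells (-0.23 ± 0.14, adjusted p = 0.68), and these sums overlapped. Lyve1, a hyaluronan receptor of lymphatics that fetal lung capillaries share, fell (-0.92 ± 0.14, adjusted p = 0.0057) from 542 to 674 CPM in arterial-negative to 238 to 418 CPM in arterial cells. Of 22 cell cycle genes, 0 passed and 20 were fitted lower, with a median of -0.49, beside 3098 of all 6084 genes tested fitted lower. By cells, 19 of 111 arterial and 74 of 288 arterial-negative cells had more than 1 UMI summed over Mki67, Top2a, Birc5, Cdk1, Nusap1 and Cenpf. Cdkn1c, which encodes the cell cycle inhibitor p57, was at 410, 317, 351 and 352 CPM against 52.5, 145, 85.1 and 192 CPM (1.60 ± 0.27, adjusted p = 0.0093), with an adjusted p of 0.064 without PBS-1. Igf2, an imprinted growth factor gene, was at 37.9, 62.1, 78.3 and 121 CPM against 18.5, 6.51, 14.8 and 23.1 CPM (2.32 ± 0.30, adjusted p = 0.0015).

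Other large differences were of lower counts or lay in few cells. Thsd7a, which encodes a membrane protein with thrombospondin repeats, rose by 3.14 ± 0.23 on the log2 scale, at 284, 114, 186 and 177 CPM against 21.6, 8.68, 29.6 and 21.2 CPM. Aldoc (a glycolytic aldolase, 2.90 ± 0.43), Amd1 (of polyamine synthesis, 2.67 ± 0.35), Serf1 (2.64 ± 0.45) and Crispld1 (2.17 ± 0.48) also passed, each with an adjusted p above 0.05 when 1 litter was left out: PBS-2 for Aldoc (0.065) and Amd1 (0.051), PBS-1 for Serf1 (0.065), and DEX-1, DEX-2 or PBS-1 for Crispld1 (0.071, 0.115 and 0.115). Amd1 has a near-identical copy in the mouse, so that its UMIs may be split. Fabp4, a fatty acid binding protein gene of capillaries, fell by 4.53 ± 0.37, but 474 of its 545 UMIs in arterial-negative cells came from 4 cells. The transcription repressor gene Hdac9 (-1.68 ± 0.20) and the matrix genes Tgfbi (-1.75 ± 0.32), Olfm1 (-1.56 ± 0.29) and Thbs1 (-2.19 ± 0.38) fell. Tgfbi and Olfm1 lost the call without PBS-1 (adjusted p 0.147 and 0.152) or PBS-2 (0.182 and 0.0904), and Thbs1 lost it without DEX-2 (0.0955) and had overlapping sums. Hemoglobin genes fell too (Hbb-bs -6.36 ± 0.46, Hba-a1 -5.22 ± 0.50), and the 7 hemoglobin barcodes named above were all arterial-negative; near-identical copies share reads within the alpha and within the beta genes.

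The arterial share of the endothelial cells was lower in both DEX litters. DEX-1 had 18.5% (95% exact Clopper-Pearson interval 9.25 to 31.4%) and DEX-2 had 16.1% (9.98 to 24%). PBS-1 had 26.4% (18.4 to 35.6%) and PBS-2 had 26.9% (20.8 to 33.7%). The group means were 17.3% ± 1.71 and 26.6% ± 0.382 (SD, n = 2 litters), a difference of -9.32 percentage points. The exact two-sided permutation test gave p = 0.333, which is the smallest p that 2 litters against 2 can give, so that this design cannot reach 0.05. The size of the gap depended on the limit: with at least 3 UMIs for arterial cells it was -4.48 points, and with at least 1 it was -2.83 points (exact permutation p = 0.667), where the litters overlapped. In the cells with few UMIs of other cells it was -13.8 points. A lower share can come from fewer arterial cells or from less RNA of the 3 genes per cell, and these cannot be told apart here.

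Endothelial cells made up 3.12%, 5.12%, 5.73% and 7.46% of the singlets in the 4 litters. The difference of the means was -2.48 points (exact permutation p = 0.333), and with litters called by HTODemux it was -0.684 points (p = 1). That caller left 44, 43, 75 and 38 endothelial cells in the 4 litters. These cells passed a gate for CD45 and ST2, so that the share is one of sorted barcodes and not of the lung.

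**Figure D4:**
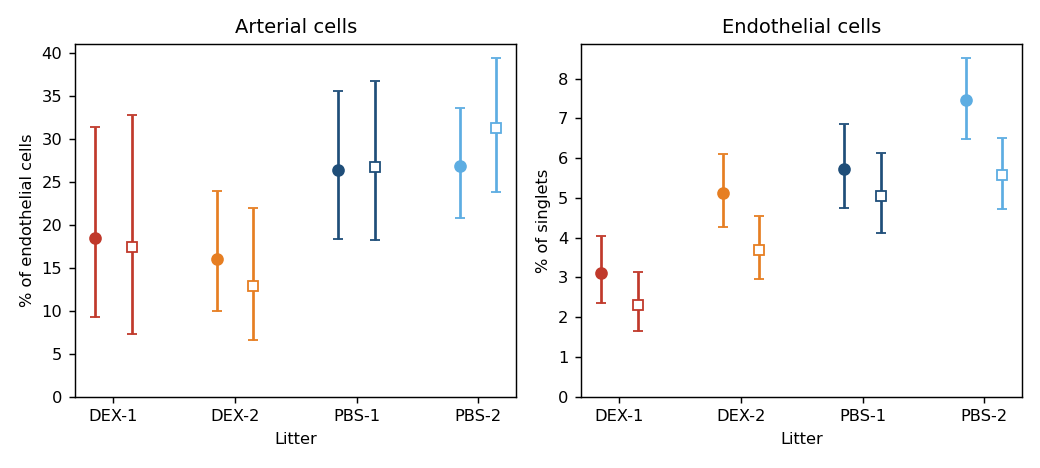
Arterial cells as a percentage of endothelial cells (left) and endothelial cells as a percentage of singlets (right), 1 pair of points per litter, with circles for all endothelial cells, open squares for those with few UMIs of other cells, and 95% exact binomial intervals. Both DEX litters lay below both PBS litters in the arterial share, with overlapping intervals.

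Few genes differed between DEX and PBS litters over all endothelial cells. Of 9027 genes tested, 4 passed (0.0443%), all higher in DEX, and 296 had an unadjusted p under 0.05 (3.28%). The 4 genes were those of hemoglobin. Hbb-bs was at 578 and 519.5 CPM in DEX-1 and DEX-2 and at 51.7 and 35.6 CPM in PBS-1 and PBS-2 (log2 fold change 3.70 ± 0.19, adjusted p = 5e-05), with Hba-a1 at 2.65 ± 0.20, Hba-a2 at 2.73 ± 0.24 and Hbb-bt at 4.28 ± 0.51. Of the 1006 Hbb-bs UMIs, 904 lay in 4 barcodes. Without barcodes rich in hemoglobin or Lyz2 no gene passed, but that limit was set on the called genes, so the loss is no separate test. The 12 red cell and platelet genes summed to 1116 and 897 CPM in the DEX litters and to 175 and 92.0 CPM in the PBS litters. Of the same lists for other cells, the 14 epithelial genes summed to 2515, 3742, 1976 and 5266 CPM and the 13 pericyte and smooth muscle genes to 16.2, 532, 11.1 and 85.0 CPM, and both sums overlapped between the groups. The 11 macrophage, monocyte and neutrophil genes summed to 120.2, 59.8, 155 and 279 CPM, higher in both PBS litters. The part of these cells in the values below was not tested beyond the set with few such UMIs.

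Over all endothelial cells, no receptor target passed. Of 16 tested genes on a list of known glucocorticoid receptor targets, 0 passed in either direction. Their median was 0.03 beside 0.00 over all genes tested. That list, used for every count of receptor targets here and below, also holds the receptor gene Nr3c1. Fkbp5, which encodes a co-chaperone of the receptor, was at 26.9, 23.3, 32.5 and 27.6 CPM (-0.25 ± 0.28, adjusted p = 1.00). Tsc22d3 (GILZ) was at 171, 166, 171 and 180 CPM (-0.06 ± 0.14) and the clock gene Per1 at 53.8, 64.9, 42.6 and 53.7 CPM (0.29 ± 0.21). Tsc22d3 thus moved by less than its error, and 1 of the DEX litters had nearly the same Per1 level as PBS-2. Zbtb16 had -0.15 ± 0.18, and Nr3c1, which encodes the receptor itself, was at 129, 125, 152 and 141 CPM (-0.20 ± 0.15). A p that misses the threshold does not show that the levels were alike. With few UMIs of other cells, 0 of 15 passed, with a median of -0.04.

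Arterial and venous genes had no call between the groups either. Over all 9027 genes tested, 4471 were fitted lower in DEX. Of 23 tested arterial genes outside the rule, 0 passed and 21 were fitted lower, with a median of -0.35. The share of arterial cells was lower in the same litters. In the cells with few UMIs of other cells, 0 of 22 arterial genes passed and 18 were fitted lower, with a median of -0.25. There, 3700 of all 7514 genes tested were fitted lower. Hey1 was at 108, 132, 197 and 158 CPM (-0.54 ± 0.18), Sox17 at 321, 364, 482 and 403 CPM (-0.36 ± 0.14) and Edn1 at 65.5, 77.5, 91.3 and 109 CPM (-0.48 ± 0.18), each with an adjusted p of 1.00. In these 3 genes both DEX litters lay below both PBS litters; such a lower pattern without overlap was seen in 16.2% of all genes tested. Vwf was at 33.6, 32.0, 75.1 and 78.4 CPM (-1.23 ± 0.20, adjusted p = 0.19) and was detected in 4, 9, 12 and 29 cells. In the cells with few UMIs of other cells it had -0.65 (adjusted p = 1.00), while it passed without DEX-1 (-1.26, adjusted p = 0.012), PBS-1 (-1.26, adjusted p = 0.0022) or PBS-2 (-1.19, adjusted p = 0.011). Id3 was at 581, 575, 892 and 855 CPM (-0.59 ± 0.11, adjusted p = 0.35), and all 4 of its litter values fell into 2 tight pairs. Without PBS-1 or PBS-2 its log2 fold change was -0.56 and -0.62, again with 1 litter left in the PBS group.

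Glycolytic and hypoxia-induced genes had a median of 0.19 over 20 tested genes, of which 14 were fitted higher in DEX and 0 passed. The median was 0.17 over 19 genes in the cells with few UMIs of other cells. Over all 9027 genes tested, 4556 were fitted higher and 4471 lower. Ldha, which encodes lactate dehydrogenase A, was at 1013, 823, 693 and 689 CPM (0.41 ± 0.12, adjusted p = 1.00), Egln3, a HIF target, at 47.0, 55.2, 37.5 and 27.1 CPM (0.73 ± 0.25), and the vasodilator gene Adm at 26.9, 29.1, 20.3 and 12.4 CPM (0.87 ± 0.35). In these 3 genes the DEX litters were the higher pair, a pattern found in 16.2% of all genes tested. All 10 tested aerocyte genes were fitted lower, with a median of -0.28 and 0 called, and Car4 overlapped between the groups at 397, 337, 524.5 and 300.7 CPM. The 369 cells with few UMIs of other cells gave 1 call in 7514 genes (0.0133%), Calca, which encodes calcitonin gene-related peptide; 107 of its 119 UMIs there came from 4 cells, and over all 479 cells its levels overlapped at 205, 196, 436 and 29.0 CPM (-0.14 ± 0.82).

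**Figure D5:**
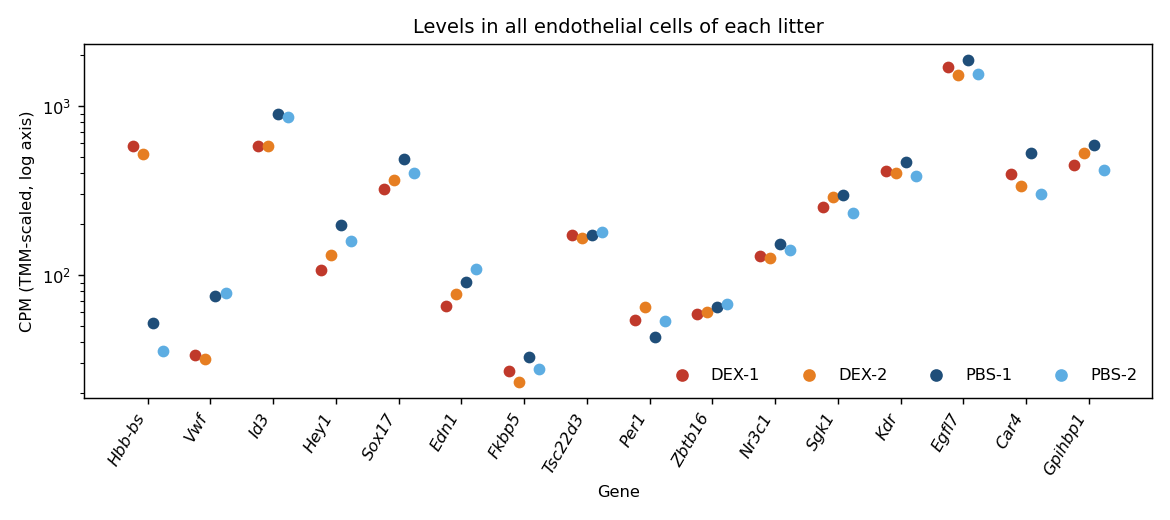
TMM-scaled CPM on a log axis for 16 genes over all endothelial cells, 1 point per litter. Hbb-bs was the only gene shown that passed the test, the receptor target Tsc22d3 lay between 166 and 180 CPM, and Vwf and Id3 were lower in both DEX litters without passing.

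Within the arterial cells alone, 0 of 5526 genes passed between DEX and PBS by edgeR (0%), with 451 at an unadjusted p under 0.05 (8.16%) and with 29 cells in DEX against 82 in PBS. Cxcl12 was at 3123, 1757, 2488 and 2337 CPM (0.01 ± 0.22) and Hey1 at 160, 210.4, 340.5 and 352 CPM (-0.87 ± 0.21, adjusted p = 0.42), so that Hey1 was lower in both DEX litters in the arterial cells too, a pattern found in 19.9% of the genes tested there (19.1% for higher). Efnb2 was at 173, 242, 399 and 310.1 CPM (-0.73 ± 0.23, adjusted p = 0.46). Of 14 receptor targets tested in arterial cells, 13 were fitted higher in DEX and 0 passed, with a median of 0.17. For all 5526 genes tested there, 2762 were fitted higher. The metallothionein gene Mt1 was at 147.5 and 221 CPM in the DEX litters and at 20.4 and 40.5 CPM in the PBS litters (2.54 ± 0.36, adjusted p = 0.30), and Rgcc, a cell cycle regulator, at 1340.2, 1284, 870.2 and 715 CPM (0.73 ± 0.14, adjusted p = 0.31). In the arterial cells with few UMIs of other cells, Mt1 was not tested, Rgcc had 0.10 (adjusted p = 0.97), and 8 of 11 targets were fitted higher, with 0 of 3884 genes called and 271 at an unadjusted p under 0.05. Among arterial-negative cells 5 of 7088 genes passed (0.0705%): Hbb-bs, Hba-a1 and Hba-a2 were higher in DEX (0.0423%), and the myeloid genes Ctss and Tyrobp were lower (0.0282%). Tyrobp was at 3.02, 10.6, 146 and 95.8 CPM (-3.96 ± 0.48, adjusted p = 0.049), and Ctss had no UMI in either DEX litter. Both calls lie in genes of macrophages, of which 6 arterial-negative barcodes carried more than 3 Tyrobp UMIs, with 4 of the 6 from PBS-2 and none from DEX-1. Among cells with few UMIs of other cells, 0 of 5518 genes passed. That set limits hemoglobin and Tyrobp UMIs, so the loss of those calls is no separate test.

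The difference of the DEX effect between arterial and arterial-negative cells, an interaction term, passed in 62 of 7042 genes (0.880%), 59 of them with the higher DEX effect in arterial cells (0.838%) and 3 with the lower (0.0426%), while 560 had an unadjusted p under 0.05 (7.95%). Of the epithelial list, 5 of 10 tested genes passed (Ager, Hopx, Cldn18, Krt18 and Epcam), and the macrophage genes Lyz2 and Tyrobp passed as well. Ager was at 2061, 1974, 264 and 1058 CPM in arterial and at 422, 1232, 647 and 1991 CPM in arterial-negative cells (interaction 2.50 ± 0.36, adjusted p = 0.0066), and Aqp5, a water channel of AT1 cells, had 3.30 ± 0.34. Barcodes over 10 AT1 UMIs made up 31.0% of the 29 arterial cells in DEX and 9.76% of the 82 in PBS, against 12.1% and 17.1% of the arterial-negative cells. More than 50% of the UMIs came from such barcodes in 54 of the 62 genes, and without them 0 genes passed (254 at an unadjusted p under 0.05). Ager, Hopx, Aqp5, Clic3 and Cldn18 defined these barcodes and were among the 62, so for them this followed from the selection. Without the barcodes, 7 and 13 arterial cells were left in DEX-1 and DEX-2, and a cause was not tested. Of 16 receptor targets, 13 had the higher fitted DEX effect in arterial cells, beside 3431 of all 7042 genes tested. Mt1 passed (3.74 ± 0.44, adjusted p = 0.00077), with 49.5% of its UMIs in the barcodes over 10 AT1 UMIs. With few UMIs of other cells, 8 of 13 targets had the higher effect and 0 passed. Of the arterial program, neither Hey1 (-0.89 ± 0.36, adjusted p = 0.50) nor Cxcl12 (-1.27 ± 0.99, adjusted p = 0.86) passed this test.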

How the data were processed

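The authors sorted CD45+Lin-ST2+ cells from pooled fetal lungs, made 10x 5′ gene and hashtag libraries and counted them with Cell Ranger multi (version 7.0.0 in the matrix header, mm10 in the submitters' processing notes). What they deposited are raw UMI counts, without normalization. Barcodes under 200 genes (13) or over 5% mitochondrial UMIs (231) were dropped, and 10409 passed both. The top hashtag of a singlet reached 10 UMIs and 3 times the second, which removes doublets between litters but not within one. Endothelial UMIs per litter ranged from 615549 to 2151918. Intervals cover counting error only.

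UMI counts were summed per litter and class and tested with edgeR 4.0.16 (TMM, filterByExpr, quasi-likelihood F-test, two-sided, Benjamini-Hochberg over all genes tested). The SE is the log2 fold change divided by the root of F. Arterial against arterial-negative cells had litter as a block, over 8 sums. DESeq2 1.42.0, limma-voom 3.58.1, RLE size factors, other filters, thinning to 2000 UMIs, HTODemux (Seurat 5.3.0), other limits and leaving out each litter were alternatives. HTODemux called 191 of the 479 endothelial cells singlets, all with the same litter. This agreement covers only the cells that it called. Its setting held 44, 43, 75 and 38 endothelial cells in the 4 litters against 54, 118, 110 and 197. It therefore differs in the balance of the litters as well as in the number of cells. The scripts were tested on simulated data. Genes were named by size among those past 0.05 with a mean of at least 10 CPM and no overlap (in the blocked fit, the same sign in all 4 litters), plus list members that passed and the up to 4 highest other members of a list. The members and lists were chosen with earlier results of these data known. The symbols Ccl21a and Aldoa each name 2 features of the matrix and were left out. Promoters came from RefSeq, and no protein sequences were used here. Litters are separate mothers, but the cells of a litter share a pool. The cells with few UMIs of other cells had at most 10 AT1 and 10 hemoglobin UMIs, 3 each of Lyz2, Tyrobp, Gata3, Cpa3 with Cma1 and Cd79a with Cd79b, and 5 of collagen.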

Additional observations from a re-analysis of the deposited data

Results flagged for a closer look

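Pfkp, a glycolytic phosphofructokinase gene, was lower in arterial than in arterial-negative cells (log2 fold change -1.44 ± 0.32, adjusted p = 0.048), and litter DEX-1 stood apart from the other 3. The log2 ratio of arterial to arterial-negative CPM (1 CPM added) was -2.40 in DEX-1 and -1.27, -1.24 and -1.05 in the others. Pfkp was the only one of 44 genes checked in this way, and chance flags about 1 in 20. The call was lost when any 1 litter was left out: the adjusted p was 0.17 without DEX-1, 0.073 without DEX-2, 0.16 without PBS-1 and 0.18 without PBS-2.

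The DEX effect differed between arterial and arterial-negative cells in 62 genes by the interaction term. Of these, 57 were at least 2 times higher in CPM in the barcodes with more than 10 AT1 UMIs than in the rest. The AT1 genes that defined those barcodes were among the 57 by selection. Only Iigp1 (-3.79 ± 0.77), Cdk8 (-1.16 ± 0.23) and Cmss1 (-0.95 ± 0.20) had the lower DEX effect in arterial cells. With HTODemux litters, 0 genes passed by the same test, on 9, 9, 25 and 12 arterial cells in the 4 litters.

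Outside the litters, 178 further barcodes met the gene rule for endothelial cells without a litter call, 23 because the top tag had under 10 UMIs and 155 because it was under 3 times the next tag. They entered no comparison.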

How the results depend on the processing

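Of 44 genes named as different between arterial and arterial-negative cells, 19 passed in every alternative in which they were tested. These were Cxcl12, Gm9946, Sox6, Thsd7a, Tm4sf1, Fbn1, Mecom, Edn1, Igf2, Stmn2, Efnb2, Sox17, Ltbp4, Depp1, Ackr3, Fabp4, Hbb-bs, Hba-a1 and Hba-a2. Some were tested in fewer alternatives: Sox6 in 14, Hba-a1 and Hba-a2 in 16, Hbb-bs in 17 and Fabp4 in 20, against 24 for Cxcl12. Fabp4 and hemoglobin UMIs lay mostly in few barcodes, as given above. Eln reversed, to 0.0152 after thinning to 2000 UMIs and to 0.37 in cells of 5000 to 20000 UMIs, and no other of the 44 did. The cause of the changes below was not tested.

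The count of 111 genes between arterial and arterial-negative cells became 67 with DESeq2, 335 without a filter, 50 after thinning, 61 with Hdc and Sftpb at 0, 37 with HTODemux litters, 190 with at least 3 arterial UMIs, and 57 to 121 on leaving out a litter (57 without PBS-2). In settings chosen after seeing the data it was 213 with 10 or fewer AT1 UMIs, 264 in the cells with few UMIs of other cells, 54 with an own tag of at least 50 UMIs and 63 in cells of 5000 to 20000 UMIs.

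For DEX against PBS in all endothelial cells, the 4 calls became 57 without a filter, 1 after thinning, 0 in cells not cycling, 2 with HTODemux litters and 18 to 91 on leaving out a litter (35 without DEX-1, 18 without DEX-2, 65 without PBS-1, 91 without PBS-2). In settings chosen later they were 1 in the cells with few UMIs of other cells, 2 with no Ptprc and at most 1 Gata3 UMI, and 0 with a stronger own tag, without hemoglobin or Lyz2 barcodes, and in cells of 5000 to 20000 UMIs. The litter numbers share only a number (correlation of deviations 0.16 for DEX-1 with PBS-1 over 9027 genes, 2 pairs); with the number as a replicate block the count was 37. In arterial cells the 0 calls became 120 without a filter, 19 in cells not cycling and 0 to 61 on leaving out a litter (2 without DEX-1, 7 without DEX-2, 61 without PBS-2). In arterial-negative cells the 5 calls became 3 with limma-voom, with Hdc and Sftpb at 0 and with Cldn5 at least 4, 99 without a filter, 0 after thinning, in cells not cycling, with HTODemux litters and in the cells with few UMIs of other cells, 8 with the replicate block, and 10 to 112 on leaving out a litter (112 without PBS-1, 18 without DEX-2). The 62 interaction calls became 16 with DESeq2, 121 without a filter, 7 after thinning, 32 with Hdc and Sftpb at 0, 0 with HTODemux litters, 7 and 9 with at least 3 and 1 arterial UMIs, 3 to 150 on leaving out a litter (113 without DEX-1, 150 without DEX-2, 3 without PBS-2), and 0 with few AT1 UMIs and in the cells with few UMIs of other cells.

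The arterial share difference of -9.32 points became -4.48 and -2.83 with at least 3 and 1 UMIs, -11.8 with HTODemux litters, -12.8 with Hdc and Sftpb at 0, -11.4 with a stronger own tag, -16.3 in cells of 5000 to 20000 UMIs, -14.1 with few AT1 UMIs and -13.8 in the cells with few UMIs of other cells, and -10.5 to -8.12 on leaving out a litter. The endothelial share difference of -2.48 points became -0.684 with HTODemux litters and -3.48 to -1.48 on leaving out a litter. The 10 arterial cells of DEX-1 limit the precision of low genes there.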
